A study of Mus musculus with 22 samples.

Results

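Loss of E2, an enhancer that the series studies as a regulator of the HoxB genes, was examined in mouse embryonic stem cells given retinoic acid for 1 day. The 3 RNA-seq libraries labelled E2-KO were compared with the 3 labelled WT, which are 6 of the 12 RNA-seq libraries and 6 of the 22 samples of the series, and every gene symbol of the count tables was kept. All groups were the E14 line, a mouse stem cell line derived from the blastocyst. All had been grown in serum with LIF and inhibitors of MEK and GSK, then deprived of LIF and both inhibitors and given 2 µM retinoic acid. WT cells are unedited, E2-KO cells lack E2, E1-KO cells lack the other enhancer, E1, and D-KO is not spelled out in the labels and is used under that name. E1-KO and D-KO, with 3 libraries each, served here for direct comparisons with E2-KO. No library without retinoic acid was used, so the values show levels after treatment and not the induction itself. The labels give neither the position of E2 nor the number of edited clones. Replicates are called biological, without saying whether they are separate cultures, so p-values measure the spread between these libraries, which may be technical.

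Enhancers are stretches of DNA that raise the transcription of genes at a distance on the same chromosome. Retinoic acid, made from vitamin A, binds nuclear receptors of the RAR and RXR families and switches on Hox genes in stem cells, beginning in the HoxB cluster at the Hoxb1 end. Hox proteins are homeodomain transcription factors that give cells of the hindbrain and trunk their position along the body axis, often bound to DNA together with cofactors of the PBX and MEIS families.

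The E2-KO libraries held 9101547, 9415490 and 10433253 reads counted to genes, and the WT libraries 10005537, 13007735 and 9507298. E2-KO replicates lay close together, with a common dispersion of 0.00441, whereas WT replicates lay far apart, with 0.0964. Mitochondrial transcripts took 1.63%, 1.64% and 1.81% of counts in E2-KO and 3.50%, 1.94% and 5.88% in WT. Across 15398 genes the Spearman correlation of a library's relative level with the GC content of the gene was 0.46, 0.44 and 0.32 in E2-KO and -0.60, 0.15 and -0.45 in WT replicates 1, 2 and 3. GC content and mitochondrial share therefore moved with genotype, and their part in each result was not tested beyond a fit with GC and length offsets. Markers of stem cells were present: 13 of 13 general pluripotency genes passed the filter on low counts. Pou5f1, the gene of the pluripotency factor OCT4, stood at 796, 1140 and 417 counts per 1e6 counted reads (CPM) in WT and 1600, 1530 and 1410 in E2-KO. The filter does not single out stem cells, since 9 of 9 primitive endoderm factors and 13 of 15 trophectoderm genes passed it too. Of 12 fibroblast markers 5 passed, with a median log2 fold change of 0.61 in E2-KO against WT. Among these 5, Loxl1 was higher in E2-KO by the test described below. None of the 5 was called without WT replicate 1 or any 1 E2-KO library, or with GC and length offsets. Postn, Lum, Dcn and Fap had 0 counts in all 6 libraries, which allows 3 counts over a group, or 0.102 CPM in E2-KO and 0.0947 in WT. Such limits cover counting error only.

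Between E2-KO and WT 2501 of 15819 tested genes (15.8%) differed, with a p from the quasi-likelihood test of edgeR that stayed under 0.05 after adjustment over all tested genes. Such genes are termed called. In E2-KO 1201 (7.59%) were higher and 1300 (8.22%) lower, and 1549 (9.79%) changed by at least 1 on the log2 scale. All 3 libraries of one genotype lay above all 3 of the other for 6616 genes (41.8%). The number called depended on single libraries. It was 800, 780 and 830 without E2-KO replicate 1, 2 or 3, and 1165, 6381 and 2466 without WT replicate 1, 2 or 3. Below, log2 fold changes are E2-KO against WT with their standard errors unless another genotype is named, and adjusted p-values are from edgeR. The median log2 fold change over all tested genes was 0.00. Counts of called list members against WT below are to be read beside the 7.59% of all genes called higher and 8.22% lower. All KO genotypes also differed from WT together, at Y-linked genes and in stretches of chromosomes 6, 2 and 10 described below. The part of such differences between lines in the results against WT was not tested for any list.

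Apart from Y-linked genes, the HoxB genes had the lowest median log2 fold change of the 43 lists in E2-KO. The cluster lies on chromosome 11 and 9 of its 10 genes, Hoxb1 to Hoxb9, were lower in E2-KO, while 8.22% of all genes were. The median of the 10 was -3.27, and the 9 calls held without any single library. Hoxb1, whose product specifies a segment of the hindbrain and which is among the first genes to answer retinoic acid, stands at chr11:96365752-96368256 (GRCm38). Its level was 17.1, 31.3 and 20 CPM in WT and 0.321, 1.15 and 1.04 in E2-KO. No E2-KO library came near the lowest WT library, and the log2 fold change was -4.74 ± 0.43 (adjusted p = 0.000612). The libraries are bulk, so fewer cells expressing a gene and less RNA per cell cannot be told apart. The 300 bases around the Hoxb1 start are shown because this is the anterior gene with the lowest E2-KO level relative to WT, with capitals marking TGATNNAT, the site that HOX and PBX proteins bind together (RefSeq, GRCm38.p6, chr11:96365508-96365807, plus strand).
Hoxb1: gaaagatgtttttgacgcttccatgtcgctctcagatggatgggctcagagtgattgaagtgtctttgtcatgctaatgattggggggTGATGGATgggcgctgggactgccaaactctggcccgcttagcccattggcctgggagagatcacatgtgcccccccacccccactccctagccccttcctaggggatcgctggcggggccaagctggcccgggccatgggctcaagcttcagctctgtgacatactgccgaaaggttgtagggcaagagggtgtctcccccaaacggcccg
The motif, read on both strands, lies in 8.85% of 32851 promoter windows of this length. Promoter windows were at hand for 3 of the 10 HoxB genes, and those of Hoxb1 and Hoxb8 hold it. A match describes the letters and not a bound site.

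The falls ran through the whole cluster from Hoxb1 to Hoxb9 with no break. Among the anterior genes, which act in the hindbrain, Hoxb2 stood at 32.7, 37.0 and 13.9 CPM in WT and 1.5, 1.77 and 2.84 in E2-KO (-3.76 ± 0.41, adjusted p = 0.00128). Hoxb4, a regulator also known from blood stem cells, stood at 31.4, 38.5 and 17.3 CPM in WT and 4.39, 3.64 and 3.69 in E2-KO (-2.90 ± 0.30, adjusted p = 0.00121). Hoxb3 changed by -2.75 ± 0.50. In all 3 the genotypes did not overlap, although WT replicate 3 was the lowest WT library each time. Among the central genes Hoxb5 fell from 11.8, 13.6 and 8.89 CPM to 0.856, 1.04 and 1.04 (-3.53 ± 0.30, adjusted p = 0.000504). Hoxb8, a trunk gene, fell from 18.6, 24.1 and 6.28 CPM to 0.642, 0.312 and 0.568 (-4.98 ± 0.65, adjusted p = 0.00141), the lowest log2 fold change of the cluster. Hoxb6 and Hoxb7 changed by -4.62 ± 0.69 and -3.02 ± 0.49. Hoxb9, toward the posterior end, fell least among the 9, from 19.6, 15.8 and 10.7 CPM to 3.74, 2.60 and 3.50 (-2.22 ± 0.29, adjusted p = 0.00208). Hoxb13, separated from the others by a gap in the cluster, was low in both genotypes, at 1.75, 1.11 and 2.96 CPM in WT and 0.963, 1.46 and 1.42 in E2-KO, and was not called (-0.56 ± 0.47, adjusted p = 0.425).

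**Figure D1:**
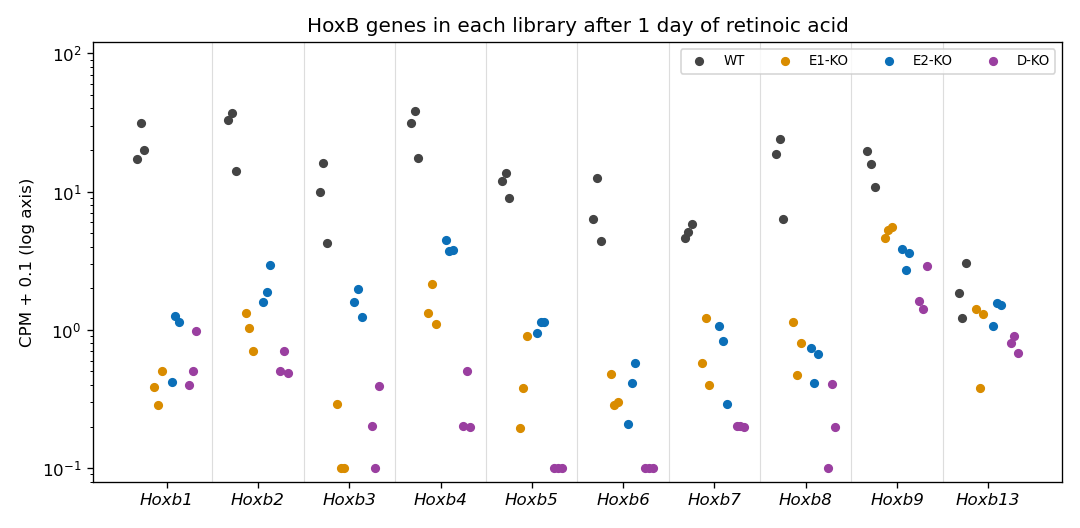
CPM of the 10 HoxB genes, with 0.1 added and on a log axis, in each of the 12 libraries, 1 point per library coloured by genotype. E2-KO points lie below all WT points for Hoxb1 to Hoxb9, and for Hoxb2, Hoxb3 and Hoxb4 they lie above all E1-KO and D-KO points.

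Transcripts from the cluster that encode no protein followed. Hoxb3os, antisense to Hoxb3 and reaching over Hoxb2, fell from 37.5, 43.1 and 17.1 CPM to 3.85, 3.02 and 3.79 (-3.20 ± 0.34, adjusted p = 0.00126), and Hoxb5os by 3.97 on the log2 scale. How the counting treated strand is not stated, so reads of these genes and of the Hox genes they overlap cannot be told apart. Mir196a-1, a microRNA gene between Hoxb9 and Hoxb13, had 1.54, 2.81 and 1.78 CPM in WT and 2.14, 2.08 and 2.08 in E2-KO (0.02 ± 0.37). Of 30 tested genes flanking the cluster 3 were higher and 1 lower, with a median of 0.03. Calcoco2, the gene of an autophagy receptor, was the 1 lower gene (-0.89 ± 0.18, adjusted p = 0.0125). Its call was lost without any 1 E2-KO library. The 3 higher genes, Abi3, B4galnt2 and Osbpl7, lost their calls in 5 of the 6 fits with a library left out, and Abi3 and Osbpl7 also with GC and length offsets.

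E2-KO held more RNA of Hoxb2, Hoxb3 and Hoxb4 than the other deletions. In the direct comparison with E1-KO 3399 of 15763 genes (21.6%) were called, 12% higher in E2-KO and 9.57% lower. In that with D-KO 5889 of 15734 (37.4%) were called, 18.5% higher and 19% lower. Only 5 of the 10 HoxB genes passed the filter in each. Hoxb1 was not among them, and its E2-KO values overlapped the 0.284, 0.186 and 0.402 CPM of the E1-KO libraries and the 0.302, 0.404 and 0.875 CPM of the D-KO libraries. Hoxb4 stood at 1.23, 2.04 and 1.01 CPM in the E1-KO libraries and at 0.101, 0.404 and 0.0972 in those of D-KO, so every E2-KO library (3.64 to 4.39) was above both. The log2 fold changes of E2-KO were 1.44 ± 0.33 against E1-KO (adjusted p = 0.000523) and 4.21 ± 0.65 against D-KO (adjusted p = 1.39e-08). Hoxb3 had 44 counts in E2-KO and 2 in E1-KO, a log2 ratio of 4.54 with a 95% counting interval of 2.60 to 7.63, and its log2 fold change against D-KO was 3.38 ± 0.89 (adjusted p = 0.000174). Hoxb2 was higher than in D-KO by 2.11 ± 0.52 and than in E1-KO by 1.14 ± 0.42, but the latter call (adjusted p = 0.0373) was lost without E2-KO replicate 2 or 3 or E1-KO replicate 2 or 3. At the posterior end the order differed: Hoxb9 stood at 4.54, 5.20 and 5.43 CPM in E1-KO, above all E2-KO libraries (2.60 to 3.74), a difference that did not pass the test (-0.62 ± 0.24, adjusted p = 0.0532). Hoxb5 and Hoxb6 had 29 and 9 counts in E2-KO and 0 in D-KO, at least 9.86-fold and 3.06-fold higher against a floor of 3 counts over the group. A fit of all 12 libraries, which gives the KO genotypes the spread of WT, called none of the HoxB genes against E1-KO and 4 against D-KO.

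HoxA RNA, from a cluster on another chromosome, was also lower in E2-KO than in WT. On chromosome 6, 5 of the 9 tested HoxA genes were lower in E2-KO and none higher (median -1.43). Hoxa7 stood at 35.8, 37.9 and 33.3 CPM in WT and 8.88, 7.70 and 9.94 in E2-KO (-2.01 ± 0.18, adjusted p = 0.000693). Hoxa5, needed for lung and cervical development, stood at 81.0, 103 and 74.0 CPM in WT and 31.7, 30.5 and 33.8 in E2-KO (-1.43 ± 0.17, adjusted p = 0.00152). The genotypes were far from overlapping for both. Hoxa4 (-1.58 ± 0.24) and Hoxa9 (-1.70 ± 0.30) also fell, and the call of Hoxa10 (-1.04 ± 0.24) was lost without WT replicate 1 or any 1 E2-KO library. Anterior genes did not pass the test, among them Hoxa2, which changed by -0.03 ± 0.37, and Hoxa3, by -0.61 ± 0.23. Against E1-KO, 4 of 8 tested HoxA genes were higher in E2-KO, beside 12% of all genes. Among them were Hoxa5 (0.58 ± 0.10, adjusted p = 5.53e-06) and Hoxa10 (1.40 ± 0.30). Against D-KO, Hoxa5 and Hoxa7 differed by -0.01 ± 0.10 and -0.02 ± 0.16. In the HoxC and HoxD clusters 3 of 18 genes passed the filter, and Hoxc4 and Hoxd13 were lower. The call of Hoxc4 was lost without any 1 E2-KO library, and that of Hoxd13 without E2-KO replicate 2 or 3 or WT replicate 1 or 3.

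Among the cofactors that bind DNA beside Hox proteins, 3 of 9 were lower and 1 higher, beside 8.22% and 7.59% of all genes. The median was -0.49, and 0.01 with GC and length offsets. Meis1 fell from 20.8, 21.6 and 12.5 CPM to 7.38, 6.77 and 6.44 (-1.42 ± 0.25, adjusted p = 0.0077). Every E2-KO library was below every WT library. With GC and length offsets the calls of Meis1, Meis2 (-0.71 ± 0.15) and Pbx2 (0.56 ± 0.15) were lost, so the count of lower genes went from 3 to 1.

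The receptors for retinoic acid did not differ by the test, but part of the machinery that takes up and breaks down retinoids did. None of 5 tested receptor genes was called by edgeR. Without WT replicate 2, however, 2 receptor genes were called higher, and 1 was in the fit of all 12 libraries. Rarb, itself a retinoic acid target, stood at 14.0, 16.2 and 20.3 CPM in WT and 11.6, 14.8 and 14.6 in E2-KO (-0.30 ± 0.21, adjusted p = 0.346), and Rara changed by -0.10 ± 0.28. Of 14 tested genes of retinoid uptake and metabolism 5 were lower and none higher (median -0.74), where 8.22% of all genes were lower. Cyp26a1, which encodes the main enzyme that degrades retinoic acid and is strongly induced by it, fell from 228, 288 and 146 CPM to 88.5, 84.4 and 74.3 (-1.42 ± 0.24, adjusted p = 0.00632). Stra6, through which cells take up retinol, fell from 34.8, 51.3 and 37.5 CPM to 17.1, 17.0 and 18.2 (-1.24 ± 0.19, adjusted p = 0.0043). Genotypes did not overlap at either gene. Cyp26b1, Dhrs3 and Aldh1a2 made up the 5. Without E2-KO replicate 1 the list had 2 calls, and it had 3 without E2-KO replicate 2 or 3 or WT replicate 1. Both Cyp26a1 (0.63 ± 0.07, adjusted p = 2.55e-10) and Stra6 (1.04 ± 0.14, adjusted p = 3.5e-08) were higher in E2-KO than in E1-KO.

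Other genes known to rise with retinoic acid were mixed, with 5 of 12 lower and 1 higher. Lefty1, a secreted inhibitor of Nodal, fell from 39.8, 77.4 and 43.3 CPM to 15.6, 15.9 and 13.3 (-1.84 ± 0.26, adjusted p = 0.00332). Nrip1, a corepressor of nuclear receptors, and Tshz1, a zinc finger gene of the trunk, changed by -1.64 ± 0.23 and -1.83 ± 0.31. Tgm2, transglutaminase 2, went the other way, from 4.31, 5.25 and 4.03 CPM to 16.0, 12.9 and 15.4 (1.70 ± 0.22, adjusted p = 0.002). Its lowest E2-KO library was above its highest WT library, and these 4 calls held without any single library.

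Genes of the primitive endoderm, the lineage of the yolk sac that stem cells can enter under retinoic acid, were lower in E2-KO. Of 9 transcription factors and receptors of the lineage 8 were lower, with a median of -1.30. Gata6, which specifies the lineage, stood at 72.6, 69.6 and 69.1 CPM in WT and 34.9, 38.1 and 36.5 in E2-KO (-0.95 ± 0.14, adjusted p = 0.00333). Sox7 (-1.30 ± 0.21) and Pdgfra (-1.30 ± 0.19), the gene of a growth factor receptor of the lineage, fell too. The calls of these 3 held without any single library, whereas the count of 8 was 3, 4 and 3 without E2-KO replicate 1, 2 or 3 and 5 without WT replicate 1. Hnf4a, a later endoderm gene, stood at 4.72, 4.37 and 4.03 CPM in WT and 5.35, 4.79 and 5.21 in E2-KO and was not called.

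The lineage's factors were nevertheless higher in E2-KO than in E1-KO. Of 8 tested 7 were higher and none lower, where 12% of all genes were higher. Their median log2 fold change was 1.18, beside 0.02 over all genes. Gata6 had 16.1, 17.4 and 15.1 CPM in E1-KO, below the lowest E2-KO library (1.17 ± 0.10, adjusted p = 1.05e-13). Foxq1, a forkhead gene, had 0.946, 1.21 and 0.302 CPM in the E1-KO libraries and 3.74, 4.68 and 4.17 in those lacking E2 (2.32 ± 0.39, adjusted p = 1.15e-06). In the fit of all 12 libraries 3 of the 7 calls were made. In D-KO Gata6 stood at 47.6, 44.9 and 45.7 CPM, above every E2-KO library (-0.34 ± 0.08, adjusted p = 0.000723), and it was the only factor of the 8 called against D-KO.

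Genes of visceral endoderm, the tissue that the lineage forms and that absorbs nutrients, split in direction. Of 10 tested 5 were lower, each holding without any single library. Cubn and Lrp2, the genes of the endocytic receptors cubilin and megalin, changed by -2.48 ± 0.28 and -1.90 ± 0.30, and Dab2, their adaptor, by -1.76 ± 0.26. Cubn stood at 18.7, 15.0 and 25.0 CPM in WT and 2.57, 4.16 and 3.69 in E2-KO. Apob, a lipid carrier gene, and Amot completed the 5. Amn, Apoe and Cited1 were higher, of which 1 call remained without any 1 E2-KO library and none without WT replicate 1. Amn encodes the partner protein of cubilin, so genes of 1 receptor complex lay on opposite sides. Of 10 basement membrane genes Lama1 (-1.45 ± 0.24) and Lamb1 (-0.68 ± 0.14), genes of laminin chains, were lower, and the call of Lamb1 was lost without any 1 E2-KO library.

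Naive pluripotency genes, which hold stem cells in the state of the early epiblast and are shut off on differentiation, were on the whole higher in E2-KO. Of 17 tested 7 were higher and 1 lower (median 0.63), where 7.59% of all genes were higher. Klf4 rose from 64.4, 94.1 and 77.0 CPM to 188, 180 and 174 (1.20 ± 0.17, adjusted p = 0.00318). Esrrb, an orphan nuclear receptor of the naive network, rose from 290, 368 and 329 CPM to 663, 664 and 623 (0.98 ± 0.16, adjusted p = 0.00493). Klf2 rose from 43.1, 80.7 and 39.7 CPM to 162, 172 and 168 (1.61 ± 0.26, adjusted p = 0.00542). For all 3 the E2-KO libraries were nearly level and above every WT library. Tfap2c also rose (1.14 ± 0.19), and it lies in the stretch of chromosome 2 described below. Nanog stood at 677, 616 and 582 CPM in WT and 832, 853 and 906 in E2-KO, not overlapping but short of the threshold (0.47 ± 0.15, adjusted p = 0.0648). Tet2, a methylcytosine oxidase, was the 1 lower gene (-0.73 ± 0.20), and it was not called with GC and length offsets or without WT replicate 1 or any 1 E2-KO library. The count of 7 higher genes ranged from 5, without E2-KO replicate 1 or 2, to 11 without WT replicate 2.

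General pluripotency genes moved less. Of 13 tested 3 were higher, Sox2 (1.17 ± 0.26), Utf1 (1.44 ± 0.32) and Dppa4 (0.63 ± 0.17), and the median was 0.02. None of the 3 was called without WT replicate 1 or without any 1 E2-KO library. The values of Pou5f1 given above did not overlap, but its WT libraries spread widely and the difference was not called (0.95 ± 0.31, adjusted p = 0.0702). Of 13 genes of the formative and primed epiblast, the next step of development, 5 were lower and 1 higher. Sall2, a zinc finger gene, fell from 30.9, 33.0 and 28.5 CPM to 9.84, 12.7 and 11.1 (-1.46 ± 0.18, adjusted p = 0.00181). Sox3, Fgf5, Lef1 and Cdh2 were the others, and the 5 became 1 or 2 without WT replicate 1 or any 1 E2-KO library. Early neural genes were scarce in both genotypes, with 9 of 16 tested. Of these 3 were lower with or without any single library except WT replicate 3, without which 4 were, and they included Sox11 (-2.24 ± 0.30) and Pax6 (-2.82 ± 0.43).

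Genes of the 2-cell-like state, a rare state of stem cell cultures that resembles the early cleavage embryo, were nearly all lower in E2-KO. Of 19 tested 17 were lower and none higher, with a median of -3.09, and 12 or more were called without any single library. Zscan4d, of a family that acts on telomeres, stood at 85.0, 57.9 and 51.9 CPM in WT and 3.32, 4.16 and 5.40 in E2-KO (-3.91 ± 0.26, adjusted p = 0.000239). Zfp352 and Usp17la, other markers of the state, changed by -3.09 and -3.46 on the same scale. The genotypes were widely apart. The Zscan4 and Usp17l genes have near-identical copies among which the counting could split reads, so the level of a single copy is uncertain. Against D-KO 11 of 15 tested members were lower (median -1.53), beside 19% of all genes. Zscan4d stood at 14.0, 13 and 11.5 CPM in D-KO (-1.57 ± 0.19, adjusted p = 2.35e-08). Against E1-KO 1 of 10 was called, and Zscan4d stood at 5.11, 2.88 and 3.52 CPM (0.17 ± 0.25).

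More of the trophectoderm genes, of the lineage that forms the placenta, were called higher than lower. Of 13 tested 7 were higher and 1 lower (median 0.81), where 7.59% of all genes were higher. The 7 included keratins of simple epithelium, with Krt8 at 24.6, 34 and 42.2 CPM in WT and 77.0, 86.6 and 80.0 in E2-KO (1.27 ± 0.20, adjusted p = 0.0049), and Tead4 (1.05 ± 0.15). Cdx2 and Elf5, defining factors of the lineage, did not pass the filter, and Eomes did not differ by the test (-0.26 on the log2 scale). With GC and length offsets 3 of 13 were called higher and 2 lower, and the median was 0.34. Krt8 was not among the 3. The count of higher genes was 3 without any 1 E2-KO library and 4 without WT replicate 1. Fgfr2, a receptor through which FGF maintains the lineage, was the lower gene (-1 ± 0.19, adjusted p = 0.0103), a call that was lost without E2-KO replicate 1 or 2.

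**Figure D2:**
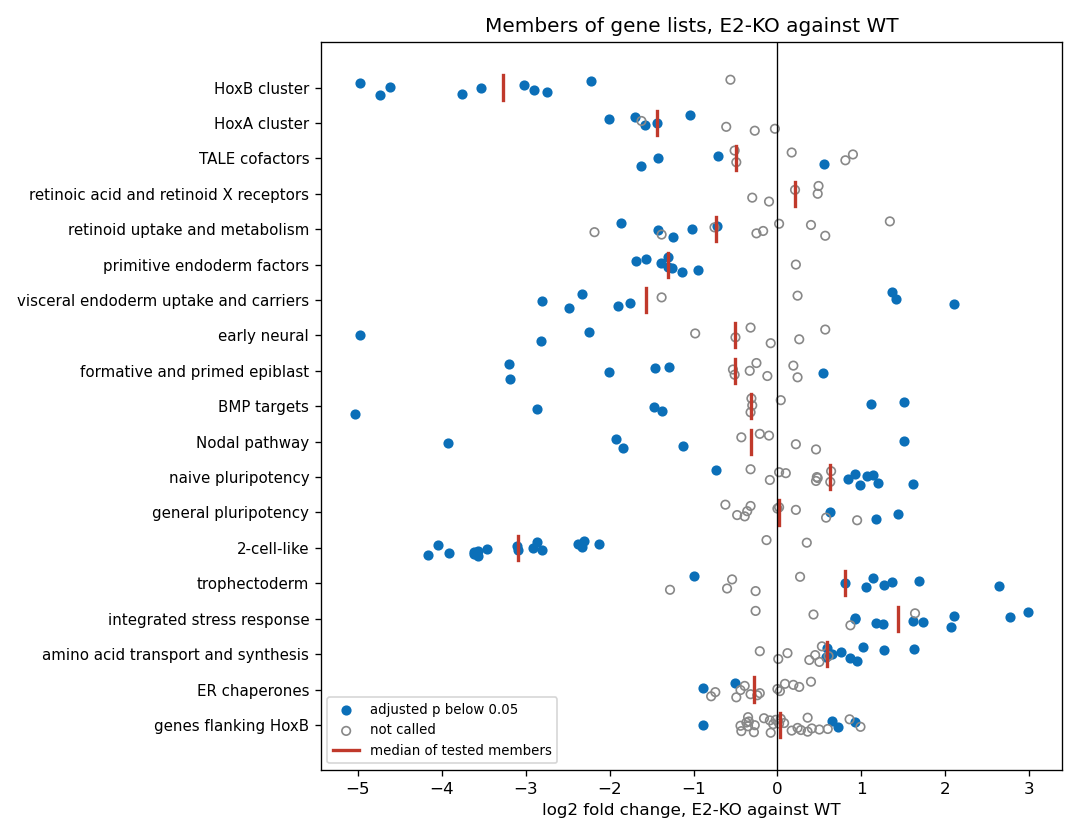
Log2 fold change of E2-KO against WT for each tested member of 19 gene lists, 1 point per gene, filled where the adjusted p is below 0.05, with the list median as a bar. HoxB (median -3.27) and 2-cell-like genes (-3.09) lie farthest to the left and integrated stress response genes (1.44) farthest to the right.

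Most genes of the integrated stress response were higher in E2-KO than in WT, E1-KO and D-KO. This pathway answers amino acid shortage, unfolded protein and other stress through the translation of ATF4, which with CHOP (Ddit3) switches on genes of amino acid supply and cell death. Of 14 tested genes 10 were higher than in WT and none lower (median 1.44). Gdf15, a secreted stress hormone, rose from 3.39, 7.47 and 2.13 CPM to 32.4, 37.6 and 36.4 (2.99 ± 0.37, adjusted p = 0.00197). Trib3, a pseudokinase that dampens ATF4, rose from 28.0, 39.5 and 21 CPM to 104, 97.6 and 96.3 (1.74 ± 0.22, adjusted p = 0.00198). Chac1, an enzyme that degrades glutathione, rose from 12.8, 21.2 and 9.25 CPM to 45.0, 46.1 and 42.5 (1.61 ± 0.27, adjusted p = 0.00659). The lowest E2-KO library was above the highest WT library in all 3, and these calls and that of Atf3 (2.07 ± 0.35) held without any single library. Atf4 itself stood at 283, 329 and 117 CPM in WT and 442, 446 and 445 in E2-KO and was not called (0.87 ± 0.32, adjusted p = 0.0952). Cebpb (2.77 ± 0.52) and Ddit4 (2.1 on the log2 scale) are members that lie in the stretches of chromosomes 2 and 10 described below. The list had 5 calls without E2-KO replicate 1 or 2 or WT replicate 1, and 11 without WT replicate 2 or 3.

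The promoters of the responding genes are shown because several hold TGATGNAA, the composite site of ATF4 and C/EBP proteins, which 3.97% of the 32851 windows hold when both strands are read. All 15 genes of the list had windows, 18 in all, and 6 of the 18 hold the motif, in Atf3, Chac1, Fgf21, Nupr1, Trib3 and Vldlr. Of 18 windows of the amino acid genes below 4 do (22.2%), in Asns, Pycr1, Slc1a4 and Slc7a11. The HOX and PBX motif TGATNNAT lies in 5 of the same 18 windows (27.8%), more than hold TGATGNAA. It lies in 1 of the 18 windows of the stress list and in 1 of 10 HoxA windows, beside 8.85% of all windows. The whole Chac1 window and 30 bases or less to each side of the motif in 4 other called genes follow, read from RefSeq (GRCm38.p6) on the gene's strand, with the motif or its reverse complement in capitals. They are Chac1 at chr2:119350992-119351291 (plus), Atf3 at chr1:191183406-191183473 (minus), Trib3 at chr2:152344011-152344076 (minus), Slc1a4 at chr11:20332680-20332747 (minus) and Pycr1 at chr11:120643814-120643881 (minus).
Chac1: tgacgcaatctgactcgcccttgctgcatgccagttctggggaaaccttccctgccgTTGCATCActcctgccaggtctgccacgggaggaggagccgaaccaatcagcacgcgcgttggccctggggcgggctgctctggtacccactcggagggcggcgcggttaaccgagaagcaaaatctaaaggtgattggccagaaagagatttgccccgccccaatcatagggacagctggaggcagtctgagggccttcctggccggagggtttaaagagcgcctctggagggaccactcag
Atf3: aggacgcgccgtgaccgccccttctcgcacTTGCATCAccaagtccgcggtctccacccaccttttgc
Trib3: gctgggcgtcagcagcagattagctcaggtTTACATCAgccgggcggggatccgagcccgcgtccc
Slc1a4: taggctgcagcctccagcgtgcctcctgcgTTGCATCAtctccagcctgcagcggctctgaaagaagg
Pycr1: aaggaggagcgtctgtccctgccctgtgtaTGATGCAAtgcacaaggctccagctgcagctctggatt
Counted from the gene start, the motif begins at -193 in Chac1, -110 in Atf3, 14 in Trib3, -4 in Slc1a4 and -103 in Pycr1. No match in another window says only that these letters are not there.

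The same genes were higher than in both other deletions, where the close replicates resolve small differences. Against E1-KO 9 of 14 were higher and none lower (median 0.34), beside 12% of all genes higher. Against D-KO 13 of 14 were higher and none lower (median 1.13), beside 18.5% of all genes higher. Chac1 stood at 32.0, 25.2 and 30.4 CPM in E1-KO (0.61 ± 0.09, adjusted p = 1.94e-07) and 15.9, 17.1 and 15.2 in D-KO (1.47 ± 0.09, adjusted p = 5.2e-14). Trib3 stood at 75.1, 76.8 and 79.2 CPM in the E1-KO libraries and at 34.4, 40.2 and 36.0 in those of D-KO. E2-KO thus held the highest 3 of the 12 libraries for both genes, and D-KO overlapped WT. Atf4 was higher as well, by 0.18 ± 0.04 against E1-KO and 0.68 ± 0.04 against D-KO. In the fit of all 12 libraries none was called against E1-KO and 6 were against D-KO.

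Genes of amino acid transport and of serine, glycine and proline synthesis, targets of the pathway, leaned the same way. Of 17 tested 9 were higher than in WT and none lower (median 0.59). Slc1a4, a carrier of neutral amino acids, rose from 32.1, 36.1 and 35.3 CPM to 85.2, 82.9 and 81.6 (1.27 ± 0.14, adjusted p = 0.00125). Slc6a9, a glycine carrier, rose from 9.65, 12.6 and 6.17 CPM to 29.9, 30.5 and 28.1 (1.63 ± 0.25, adjusted p = 0.00453). These were the calls that held without any single library. Phgdh and Shmt2, enzymes of serine and glycine synthesis, changed by 0.95 ± 0.19 and 0.87 ± 0.18. Only 2 genes of the list were called without any 1 E2-KO library and 3 without WT replicate 1. Against D-KO 16 of 17 were higher and 1 lower (median 0.61), where 18.5% of all genes were higher. Against E1-KO 7 were higher (median 0.14), where 12% of all genes were. In the fit of all 12 libraries 10 were called higher against D-KO and none against E1-KO. Chaperones of the endoplasmic reticulum, which answer unfolded protein through other sensors, did not share the rise. Of 16 tested none was higher than in WT, and Dnajc3 (-0.89 ± 0.18) and Manf (-0.50 ± 0.14) were lower, neither of them called without WT replicate 1 or any 1 E2-KO library. Relative to D-KO 10 of 16 chaperone genes were lower, beside 19% of all genes. Relative to E1-KO 11 were higher, beside 12% of all genes.

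**Figure D3:**
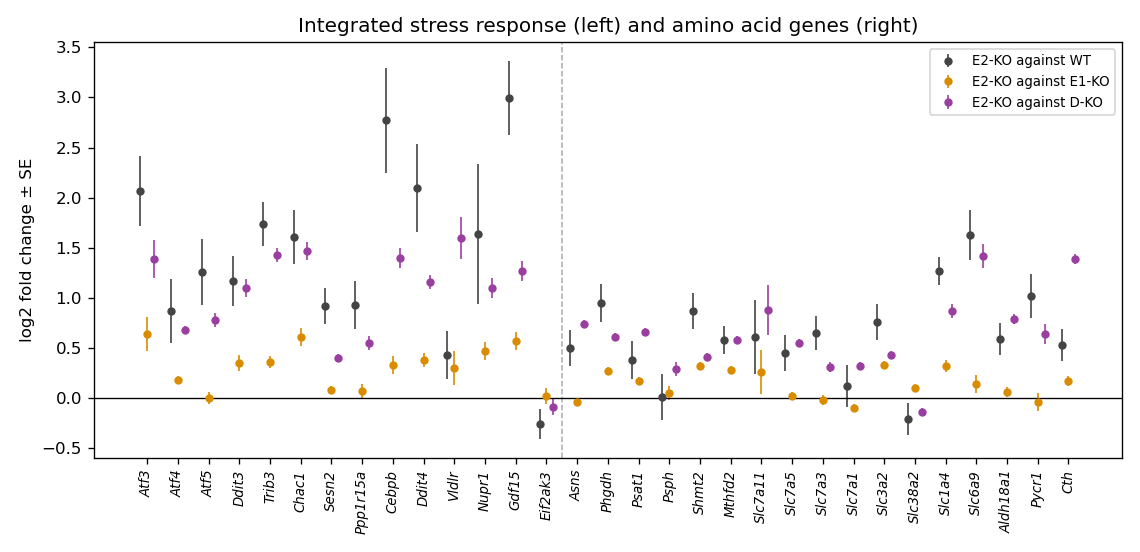
Log2 fold change with its standard error of integrated stress response genes (left of the dashed line) and amino acid genes (right) in E2-KO against WT, E1-KO and D-KO. Chac1 lies at 1.61, 0.61 and 1.47 and most genes lie above 0 in all 3 comparisons, with wider errors against WT.

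Several targets of the BMP and Nodal pathways were lower in E2-KO, and Msx1 was among the 12 largest falls. Msx1, a homeobox target of BMP, stood at 9.55, 9.47 and 5.57 CPM in WT and 0.321, 0.208 and 0.189 in E2-KO (-5.04 ± 0.52, adjusted p = 0.000529). Id2, an inhibitor of helix-loop-helix factors that BMP induces, stood at 86.0, 57.8 and 39.7 CPM in WT and 9.31, 6.97 and 8.90 in E2-KO (-2.86 ± 0.28, adjusted p = 0.000997). Both were without overlap and held without any single library, while Id1 and Id3 were called but not without WT replicate 1 or any 1 E2-KO library, which took the count of lower BMP targets from 4 to 2. The inhibitors Smad6 and Smad7 were higher, with Smad7 at 46.6, 78.2 and 29.4 CPM in WT and 156, 151 and 135 in E2-KO (1.51 ± 0.30, adjusted p = 0.0128), a call lost without WT replicate 1. Of 10 Nodal pathway genes 4 were lower with or without any single library. They included Skil (-1.92 ± 0.23), a corepressor of SMAD proteins, Lefty1 and Lefty2 (-1.12 ± 0.17). Smad7, which inhibits both pathways, was the 1 higher gene of the list, and Nodal itself was not called (0.46 ± 0.19, adjusted p = 0.131).

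The largest rises in E2-KO were led by Csmd3, Egr4, Loxl4 and Cyp2b23. Csmd3, a gene of a large adhesion protein of the brain at chr15:47580637-48792063, had 0 counts in the 3 WT libraries and 0 in the 3 E1-KO libraries. It stood at 18.9, 22.5 and 19.9 CPM in E2-KO and 39.1, 35.1 and 35.3 in D-KO. Against a floor of 3 counts over the WT group it was at least 216-fold higher in E2-KO, and at least 213-fold higher than in E1-KO. Cyp2b23, a cytochrome of the P450 family, rose from 3.18, 3.26 and 2.13 CPM to 82.2, 75.0 and 80.1 (4.77 ± 0.19, adjusted p = 3.28e-05). Loxl4, a lysyl oxidase gene, rose from 0.205, 0.370 and 0.119 CPM to 6.95, 8.12 and 6.72 (4.80 ± 0.48, adjusted p = 0.000525). All 3 stood apart from WT by a wide gap. Egr4, an early growth response gene, had 2 counts in WT and 123 in E2-KO, a log2 ratio of 6.04 with a 95% counting interval of 4.16 to 9.11. The other large rises were H2-Eb1 (3.98 ± 0.48), a class II histocompatibility gene, Miip, Tbxa2r, Slc13a5, Ube2dnl1, Pnma5, Efhc2 and Magea4, at log2 fold changes of 3.08 to 3.96.

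Of the 12 largest falls 4 were genes of the Y chromosome and 3 were HoxB genes. Ddx3y, a helicase gene, had 1674 counts in WT and 0 in E2-KO, at least 520-fold lower against the floor, and Uty and Eif2s3y were at least 266-fold and 249-fold lower. Uba1y had 125 counts in WT and 0 in E2-KO. All 4 tested members of the Y-linked list, which holds Usp9y but not Uba1y, were at 0 counts in E2-KO. They were at 0 in D-KO too, while E1-KO had 1 count of Uty. The 3 deletions thus lay together, apart from WT. Arg1, arginase 1, had 153 counts in WT and 2 in E2-KO, a log2 ratio of -6.16 with a 95% counting interval of -9.21 to -4.28. Cxcl12, a chemokine gene, fell from 4.42, 7.70 and 4.98 CPM to 0.214, 0.208 and 0.0947 (-4.98 ± 0.62, adjusted p = 0.000881). Rdh1, a retinol dehydrogenase gene, fell from 5.75, 4.14 and 4.15 CPM to 0.214, 0.208 and 0.284 (-4.23 ± 0.50, adjusted p = 0.000994). Arg1, Cxcl12 and Rdh1 were at low levels in WT, and none of the E2-KO libraries reached 1 CPM at these genes. Outside the 12 largest falls, Grb10, an imprinted gene that restrains growth signalling, fell from a high level, 444, 407 and 444 CPM, to 49.1, 51.4 and 55.7 (-3.05 ± 0.14, adjusted p = 6.89e-05).

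The genes that differed most between E2-KO and the other deletions were few. A log2 difference of at least 1 was called for 273 genes against E1-KO (1.73%) and 569 against D-KO (3.62%). Besides Csmd3, Foxq1 and Hoxb3os, the largest rises over E1-KO were Cubn (2.1 ± 0.39), Sp8, a zinc finger gene of limb and brain (2.06 ± 0.40), and Atp1a4 (1.76 ± 0.40). H19, an imprinted non-coding RNA, fell from 23.1, 24.3 and 24.7 CPM in E1-KO to 4.07, 3.44 and 1.99 in E2-KO (-2.94 ± 0.18, adjusted p = 1.39e-20). Efhc2 fell from 34, 33.4 and 38.2 CPM in E1-KO to 6.10, 6.97 and 7.48 in E2-KO (-2.35 ± 0.13, adjusted p = 6.36e-22), both being levels above those of WT. Against D-KO the largest rises outside HoxB were Loxl4 (2.33 ± 0.30), Trim66 (2.30 ± 0.33), Acot2 (2.29 ± 0.28) and Slc13a5, a citrate carrier (2.18 ± 0.20). The largest falls included Usp17la (-2.29 ± 0.43) and Edn2, the gene of a vasoactive peptide (-2.25 ± 0.42).

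Neighbouring genes moved together in 1 stretch of chromosome 4 that set E2-KO and D-KO apart from E1-KO and WT. The stretch was chosen after the values were seen, so it gets no test as a set. It runs from Map3k7 to Mob3b, chr4:31964097-35157484 (GRCm38), and holds 21 tested genes with a mean log2 CPM of at least 1, tested genes at lower levels being left out of it. In E2-KO 18 of the 21 were lower than in E1-KO and none higher, with a median log2 fold change of -0.94, where 9.57% of all genes were lower and the rest of chromosome 4 had a median of 0.04. Against WT 17 were lower and the median was -1.23. Against D-KO the median was -0.02, with 4 called in each direction. Map3k7, the gene of the signalling kinase TAK1, stood at 147, 119 and 144 CPM in WT, 134, 138 and 124 in the E1-KO libraries, 58.0, 55.0 and 58.8 in the E2-KO libraries and 61.3, 59.8 and 65.6 in D-KO. Its log2 fold change was -1.20 ± 0.06 against E1-KO (adjusted p = 8.64e-23) and -1.25 ± 0.15 against WT. E2-KO and D-KO thus lay together, far below WT and E1-KO. Mdn1, a ribosome assembly gene, differed from E1-KO by -1.54 ± 0.04, Zfp292 by -1.24 ± 0.07 and Orc3, of the replication origin complex, by -0.94 ± 0.07. Of the 21 the exceptions against E1-KO were Lyrm2 (-0.42 ± 0.28) and the predicted genes Gm11942 (-0.37 ± 0.26) and Gm12751 (-0.02 ± 0.23).

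The ends of the stretch were not located closely, since the nearest genes outside it with that mean level, Epha7 at chr4:28813131-28967499 and Aco1 at chr4:40143081-40198338, lie far from it. Epha7 differed from E1-KO by -0.36 ± 0.22 (adjusted p = 0.265) and Aco1 by -0.03 ± 0.06 (adjusted p = 0.801), neither of them called. Against WT Epha7 was lower (-1.87 ± 0.23, adjusted p = 0.00179) and Aco1 did not pass the test (0.21 ± 0.15). Relative to the E1-KO mean, the median gene of the stretch stood at -1, -0.88 and -0.87 on the log2 scale in the E2-KO libraries, at -0.88, -0.81 and -0.79 in D-KO and at 0.26, 0.04 and 0.33 in WT. No library of one pair of genotypes came near the other pair. Gene counts do not measure the number of DNA copies, which was not analysed here.

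**Figure D4:**
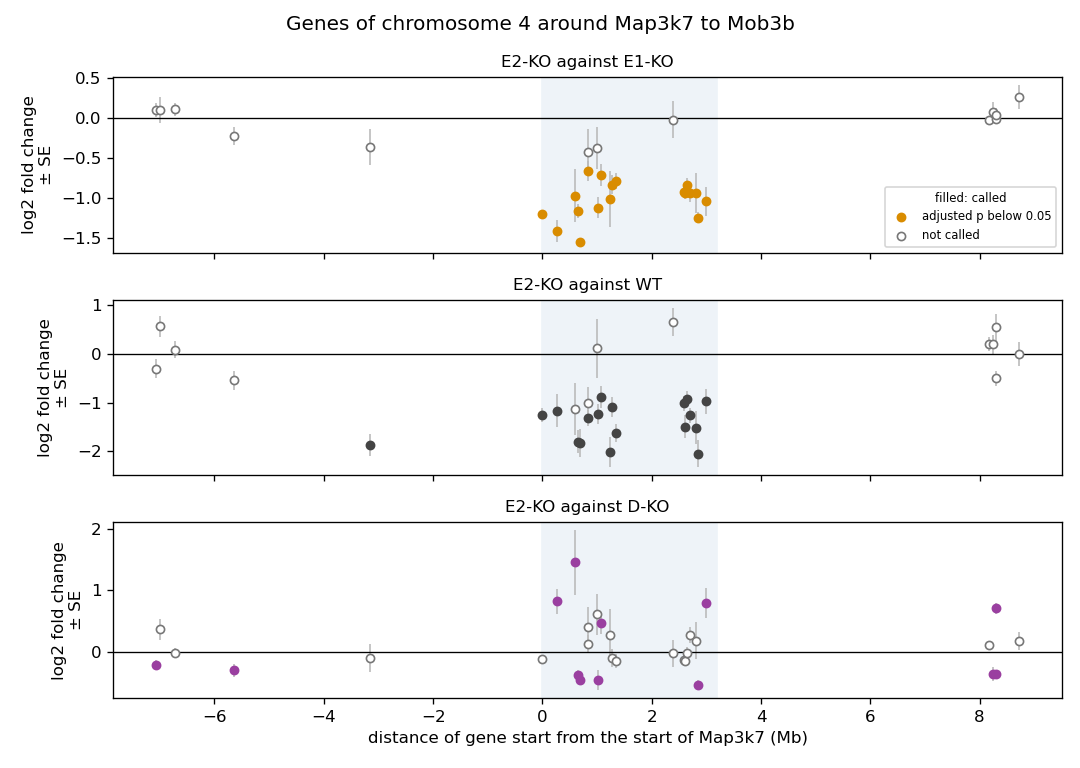
Log2 fold change with its standard error of E2-KO against E1-KO, WT and D-KO for tested genes of chromosome 4, by distance in Mb of the gene start from that of Map3k7, filled where the adjusted p is below 0.05. In the shaded stretch the genes lie around -0.94 against E1-KO and around -0.02 against D-KO.

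In 3 other stretches neighbouring genes moved together against WT and the WT libraries stood apart from all 3 deletions. They too, with their limits, were chosen after the values were seen. On chromosome 6 beyond 100 Mb the median of 286 genes was -0.52 against WT and 0.00 against E1-KO, with 103 lower and 3 higher than in WT, whereas before 100 Mb, where HoxA lies, it was -0.09. On chromosome 2, in the 15 Mb that begin at 160 Mb, the median of 116 genes was 0.69 against WT and 0.00 against E1-KO, with 59 higher and 1 lower. Its limit depends on the values, since the whole bin from 170 to 180 Mb, into which it runs, had a median of -0.02 over 71 genes, with 19 higher and 11 lower. On chromosome 10 between 50 and 70 Mb the median of 80 genes was 0.63 against WT, with 30 higher and none lower. Each of these medians kept its sign with GC and length offsets (-0.50, 0.50 and 0.74) and with WT replicate 2 as the single WT library (-0.53, 0.57 and 0.72). Among the genes named here Cxcl12, Ccnd2 (-2.78 ± 0.25), Tead4 and Nanog lie in the first. Tfap2c, Cebpb, Hnf4a and Gnas (1.34 ± 0.20) lie in the second, and Ddit4, Nodal and Hk1 (1.18 ± 0.15) in the third. The part of their location in the values of all these genes was not tested. A smaller group, 25 genes of the X chromosome between 90 and 100 Mb, had a median of -0.58 against WT and -0.05 against E1-KO, with 1 higher and 6 lower than in WT. Another stretch differed from D-KO. On chromosome 3 the 27 genes from 140 to 150 Mb had a median of 0.53 against D-KO and 0.10 against E1-KO. The 28 genes from 150 to 160 Mb had 0.52 against D-KO and -0.04 against E1-KO.

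**Figure D5:**
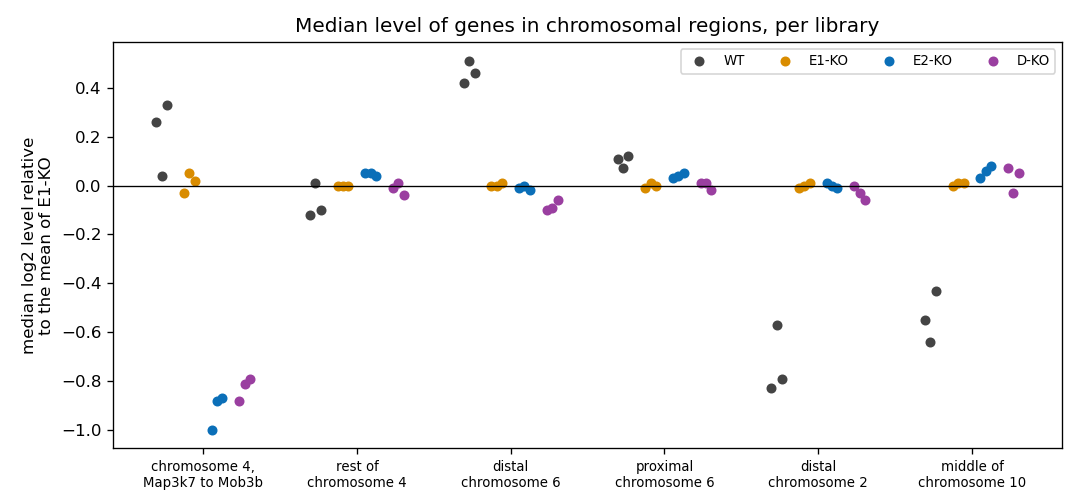
Median log2 level of the genes of each region relative to the E1-KO mean, 1 point per library, coloured by genotype. E2-KO and D-KO lie between -1 and -0.79 in the chromosome 4 stretch, and WT lies at 0.42 to 0.51 in distal chromosome 6, at -0.83 to -0.57 in distal chromosome 2 and at -0.64 to -0.43 in the middle of chromosome 10, apart from the other genotypes.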

How the data were processed

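Bulk RNA-seq of mouse embryonic stem cells was deposited by the authors as 1 table of raw read counts per gene symbol for each library. Per the submitters' processing notes, the tools included HISAT2 2.1.0 and HTSeq 0.9.1 on mm10. The strand setting is not given in the sources used here. Lines of HTSeq that name no gene were left out of totals and tests. No-feature reads were 1.11 to 1.20 times the counted reads. Groups came from the sample titles. The 4C and ChIP samples were not used here.

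Tests used edgeR 4.0.16 in R 4.3.3 (quasi-likelihood fit with robust dispersions, filterByExpr, TMM factors over the 12 libraries). Each of 3 comparisons was fitted on its own 6 libraries, because KO and WT replicates differ in spread, with Benjamini-Hochberg adjustment over all tested genes and a threshold of 0.05. Standard errors are on the log2 scale, CPM use TMM-adjusted totals, and genes with 3 counts or less in a group have exact binomial 95% intervals or a floor of 3 counts over the group. The edgeR fit of E2-KO against WT was tested on simulated data, and the other comparisons and the alternatives were not. The simulated libraries had a single spread per genotype, with no trend with GC content and no deviating WT library. Alternatives were a fit of all 12 libraries, DESeq2 1.42.0, its size factors, library totals, limma 3.58.1 (voom), no filter, GC and length offsets, a replicate block, WT replicate 2 as the single WT library, and each library left out.

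Named by rule were all members of the HoxB and HoxA clusters and the HoxB non-coding RNAs, from each other of 43 lists up to 4 called members with the smallest adjusted p (with none called, the member of highest CPM), and the 12 largest rises and falls against WT or 6 against each KO. These last were called genes, predicted loci left out, whose mean log2 CPM reached 1 and whose groups do not overlap. Other genes were named after their values were seen, and some named by the rule are not reported here. The members and lists were chosen with earlier results of these data known. Positions are from GENCODE M21 (48108 of 52535 symbols matched) and promoters, 250 bases before to 50 after a start, from RefSeq (35103 matched).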

Additional observations from a re-analysis of the deposited data

How the results depend on the processing

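The number of genes called depended on which libraries entered. Against WT, 2501 genes became 5919 in the fit of all 12 libraries, 3805 without the filter on low counts and 4982 with WT replicate 2 as the single WT library, and 780 to 6381 with 1 library left out. DESeq2 called 3300. The fit of all 12 libraries gives the KO genotypes a spread that includes that of WT, and there the direct comparisons fell from 3399 to 100 genes against E1-KO and from 5889 to 751 against D-KO. Scaling by library totals moved the share of calls that were higher from 55.6% to 44.3% against E1-KO and from 49.3% to 62.8% against D-KO. Of 152 named genes called against WT, 124 to 152 were called under the alternatives that kept all libraries and 92 to 149 with 1 left out, all in the same direction. GC and length offsets kept 128 of them. Genes under about 1 CPM, among them most HoxB genes in the KO lines, rest on few reads, which limits their ratios.

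With the replicate number as a block 3170 genes were called against WT, 3173 against E1-KO and 6243 against D-KO. Deviations of same-numbered E2-KO and WT libraries correlated at -0.10, 0.09 and 0.10, so the numbers were not taken as pairs. Not every library correlated best with its own number.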

Other observations

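The imprinted genes Grb10 and Mest were lower in E2-KO. Of 24 tested imprinted genes 6 were lower than in WT and 2 higher, where 8.22% of all genes were lower and 7.59% higher, with a median log2 fold change of -0.22. The 6 lower genes became 3 or 4 without WT replicate 1 or any 1 E2-KO library and 8 without WT replicate 2. Besides Grb10, Mest fell from 206, 176 and 175 CPM to 78.9, 78.4 and 80.5 (-1.23 ± 0.14, edgeR adjusted p = 0.00147). The genotypes lay far apart and the call held without any single library. Cdkn1c, an inhibitor of the cell cycle, stood at 135, 160 and 45.9 CPM in WT and 28.6, 24.3 and 25.7 in E2-KO (-2.12 ± 0.38), a call lost without WT replicate 1. Of 32 cell cycle and replication genes 4 were lower and 2 higher, 1 was lower and none higher without any 1 E2-KO library, and 10 were lower and 6 higher without WT replicate 2. Ccnd2, cyclin D2, stood at 62.5, 49.5 and 95.9 CPM in WT and 8.67, 10.7 and 10.8 in E2-KO, and its neighbours on chromosome 6 were lower too.

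Dazl and Tex101, genes of the germline, lay on opposite sides. Dazl, an RNA-binding protein of germ cells, fell from 120, 71.5 and 112 CPM to 19.9, 25.9 and 22.9 (-2.14 ± 0.22, edgeR adjusted p = 0.00109), whereas Tex101 rose from 1.13, 2.15 and 1.42 CPM to 8.02, 7.91 and 9.37 (2.39 ± 0.31, adjusted p = 0.00198). They were the called genes among 14 tested, a share near that of all genes, and 4 were lower without WT replicate 2. Of 15 adhesion genes 3 were higher and 3 lower, with 1 higher and 1 or 2 lower without WT replicate 1 or any 1 E2-KO library. Cldn4, a tight junction claudin, rose from 29.0, 47.7 and 25.7 CPM to 99.3, 92.3 and 79.2 (1.40 ± 0.23), and Ocln, occludin of the same junctions, fell from 10.5, 8.44 and 9.61 CPM to 2.89, 2.19 and 2.75 (-1.86 ± 0.25). Both calls held without any single library. Of 14 genes of antigen presentation 4 were higher, among them Tap1 (1.80 ± 0.33), a peptide transporter, and with GC and length offsets 2 were higher and 1 lower. The 4 became 2 without WT replicate 1 or any 1 E2-KO library and 8 without WT replicate 2.

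Mitochondrially encoded genes moved with the mitochondrial share of the WT libraries. Of 12 tested 6 were lower, with a median of -1.16, but none was called without WT replicate 1 or any 1 E2-KO library, 10 were without WT replicate 2, 1 without WT replicate 3 and 1 with GC and length offsets. CTCF and cohesin genes, which fold chromosomes into loops, had 2 of 15 lower, none with GC and length offsets and 11 without WT replicate 2. Of 7 core histone genes 4 were lower, and 1 or 2 were without any single library other than WT replicate 3. Their near-identical copies leave single levels uncertain.

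Other lists had 6 or fewer calls against WT. Higher and lower genes numbered 1 and 5 of 22 for cholesterol synthesis, 1 and 3 of 18 for glycolysis, and 2 and 0 of 21 for Polycomb complexes. They numbered 0 and 1 of 18 for coactivators, 1 and 2 of 15 for p53 targets, and 2 and 0 of 16 for FGF and ERK response. For Wnt targets they were 1 and 1 of 11, for LIF and STAT3 signalling 2 and 0 of 10, for DNA methylation 1 and 1 of 9, and for primitive streak genes 0 and 2 of 8. Without any 1 E2-KO library none of the genes of cholesterol synthesis, coactivators, p53 targets, Polycomb complexes, Wnt targets, LIF and STAT3 signalling or DNA methylation was called. Without WT replicate 2 cholesterol synthesis had 4 higher and 9 lower, p53 targets 6 and 3, coactivators 2 and 5, glycolysis 3 and 5 and Polycomb complexes 2 and 4.

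Some of these lists held more calls against the other deletions, where replicates lay closer. Against E1-KO, with 12% of all genes higher and 9.57% lower, 10 of 18 glycolysis genes were higher in E2-KO (median 0.20) and 12 of 18 coactivator genes lower and 1 higher. Against D-KO, with 18.5% of all genes higher and 19% lower, 13 glycolysis genes were lower and 4 higher (median -0.33), and 19 of 32 cell cycle genes lower and 7 higher. In the fit of all 12 libraries the 10, 12, 13 and 19 became 2, 0, 7 and 2.

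Kif11, a spindle motor gene, was among the largest falls against both other deletions, by -1.80 ± 0.31 against E1-KO (edgeR adjusted p = 0.0193) and -2.17 ± 0.59 against D-KO (edgeR adjusted p = 0.0473). Both calls were lost without any 1 E2-KO library and in the fit of all 12 libraries, and the latter also without D-KO replicate 1 or 3. It stood at 11.4, 12.8 and 15.7 CPM in the E2-KO libraries, 53, 31.8 and 55.1 in the E1-KO libraries, 58.1, 28.5 and 94.3 in D-KO and 4.62, 5.85 and 47.3 in WT. E2-KO lay below both other deletions but within the range of WT, whose libraries spread widely.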
